A study of Mus musculus with 54 samples.

Results

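The REV-ERB and ROR nuclear receptors were followed in the mouse suprachiasmatic nucleus (SCN), the hypothalamic pacemaker, over a light/dark cycle. The genes are *Nr1d1* (REV-ERBα), *Nr1d2* (REV-ERBβ), *Rora* and *Rorb*, chosen by name through their Ensembl identifiers, and they make up 4 of the 30031 genes in the count table. Tissue was laser-captured from male C3H/HeH mice of 10 to 12 weeks. The mice were kept in a 12 hr light and 12 hr dark cycle at 150 lux. Every group shared this strain, sex and age, and the column headers mark every library WT, for wild type. Brains were taken at Zeitgeber time (ZT, hours after lights on) 2, 6, 10, 14, 18 or 22, with 3 biological replicates (A, B and C) per timepoint, each a pool of 5 mice. About 1 ng of RNA per replicate was amplified before sequencing. Each replicate was sequenced in 3 lanes, which gives 54 deposited samples and 18 libraries. A library is therefore a mean over animals and over all cells of the captured area, and fewer cells of a type cannot be told apart from less RNA per cell.

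REV-ERBs and RORs are nuclear receptors that compete for the same DNA element, the RORE, an AGGTCA half-site with an A/T-rich flank. RORs recruit coactivators there, whereas REV-ERBs, which bind haem, recruit the NCoR–HDAC3 corepressor. The competition drives the rhythm of *Arntl* (BMAL1) and other RORE genes, and BMAL1 with CLOCK in turn activates the REV-ERB genes through E-boxes. *Rorb* is known for its high expression in the SCN and retina, and mice that lack it have an altered behavioural period.

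To show where these elements lie, the 250 bases before the annotated start were taken for both REV-ERB genes (RefSeq, GRCm38.p6, written 5′ to 3′ on the gene's strand), with any AGGTCA half-site in capitals. The *Nr1d1* stretch is chr11:98775378-98775627 (minus strand) and the *Nr1d2* stretch is chr14:18239107-18239356 (minus strand).
Nr1d1: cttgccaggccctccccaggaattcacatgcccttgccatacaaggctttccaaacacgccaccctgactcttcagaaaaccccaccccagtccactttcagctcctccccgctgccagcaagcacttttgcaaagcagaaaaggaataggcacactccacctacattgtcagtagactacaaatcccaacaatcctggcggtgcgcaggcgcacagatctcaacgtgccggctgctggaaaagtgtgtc
Nr1d2: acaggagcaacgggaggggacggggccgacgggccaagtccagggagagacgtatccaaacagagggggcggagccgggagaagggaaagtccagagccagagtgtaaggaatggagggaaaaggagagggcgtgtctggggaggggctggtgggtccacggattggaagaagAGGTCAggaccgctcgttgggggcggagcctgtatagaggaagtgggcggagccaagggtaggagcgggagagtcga
For comparison, 2 RORE genes that hold the extended half-site TAGGTCA in their window are shown with that site in capitals. The *Nfil3* stretch is chr13:52981040-52981099 (minus strand). Its TAGGTCA lies on the strand opposite to the gene, so the printed strand reads TGACCTA. The *Arntl* stretch is chr7:113207530-113207558 (plus strand).
Nfil3: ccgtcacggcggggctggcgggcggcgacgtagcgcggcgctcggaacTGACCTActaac
Arntl: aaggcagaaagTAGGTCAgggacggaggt

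All 4 members and the 5 RORE genes had promoter windows (250 bases before to 50 after a start). The windows were searched on both strands for the E-box CACGTG, the half-site AGGTCA, the longer TAGGTCA, which contains it, and the D-box TTATGNAA. Among all 32851 windows, 7.15% held CACGTG, 16.3% AGGTCA, 2.61% TAGGTCA and 3.38% TTATGNAA. The *Nr1d2* window held 1 AGGTCA, which begins 77 bases before the start, and none of the other elements. The windows of *Nr1d1* and *Rora*, and both windows of *Rorb*, held none of the 4. The TAGGTCA of *Nfil3* begins 12 bases before the start and that of *Arntl* begins 30 bases after one of its starts. *Clock* held AGGTCA 119 bases before one start and *Cry1* held CACGTG 60 bases before its start. A match is a match of letters, not a measured binding site, and elements farther away were not searched.

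The libraries held 15412981 to 35820945 counted reads (median 25075231). A principal component analysis used the most variable genes (PC1 40.99% and PC2 13.89% of their variance). Most libraries formed 3 clusters of 2 timepoints each. These were the libraries around lights on (ZT22, ZT2), those later in the light (ZT6, ZT10) and those earlier in the dark (ZT14, ZT18). ZT18 replicate C lay away from the last cluster on PC1 (23.7, against -10.1 to -0.491 in the other ZT14 and ZT18 libraries). The study's own plot marks both timepoint and sequencing batch, and the labels give no batch, so a difference between clusters cannot be told apart from a batch that follows them. Differences inside a cluster are therefore given beside the others. Reads of ZT6 and ZT10, which form a cluster, also differ between the count table and the authors' normalized table, as given under processing. ZT18 replicate C and ZT6 replicate C stood apart, with 16.1% and 12.9% of the variance within timepoints, where an even share is 5.56%. All 10 SCN neuron markers, among them *Avp*, *Vip* and *Six6*, were detected in every library. Their summed level was 1502 to 5658 CPM (counts scaled to a common library total), against 17.1 to 87.9 CPM for 7 markers of neighbouring hypothalamic neurons. Oligodendrocyte markers summed to 1267 to 6071 CPM, and telencephalic excitatory neuron markers to 16.3 to 218 CPM. The mean SCN neuron sum was above the oligodendrocyte sum at ZT6 (5418 against 1910 CPM) and below it at ZT18 (2369 against 5411 CPM). Differences in captured tissue between libraries were not tested. No marker of any of the 7 cell type lists was at 0 in all libraries.

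Each receptor is described by its level in CPM, scaled between libraries by the trimmed mean of M-values (TMM), a test that its 6 timepoint means are equal (edgeR quasi-likelihood, Benjamini–Hochberg adjusted over 18941 genes), and the exact JTK_CYCLE test for a 24 hr wave. *Nr1d2*, *Rora* and *Rorb* changed with time and were called cycling, and *Nr1d1* was not called by either test. Across all genes 44.0% changed with time and 29.9% were called cycling, so 3 of 4 members stands above both shares, but with 4 genes no more than that can be read from the count.

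**Figure D1:**
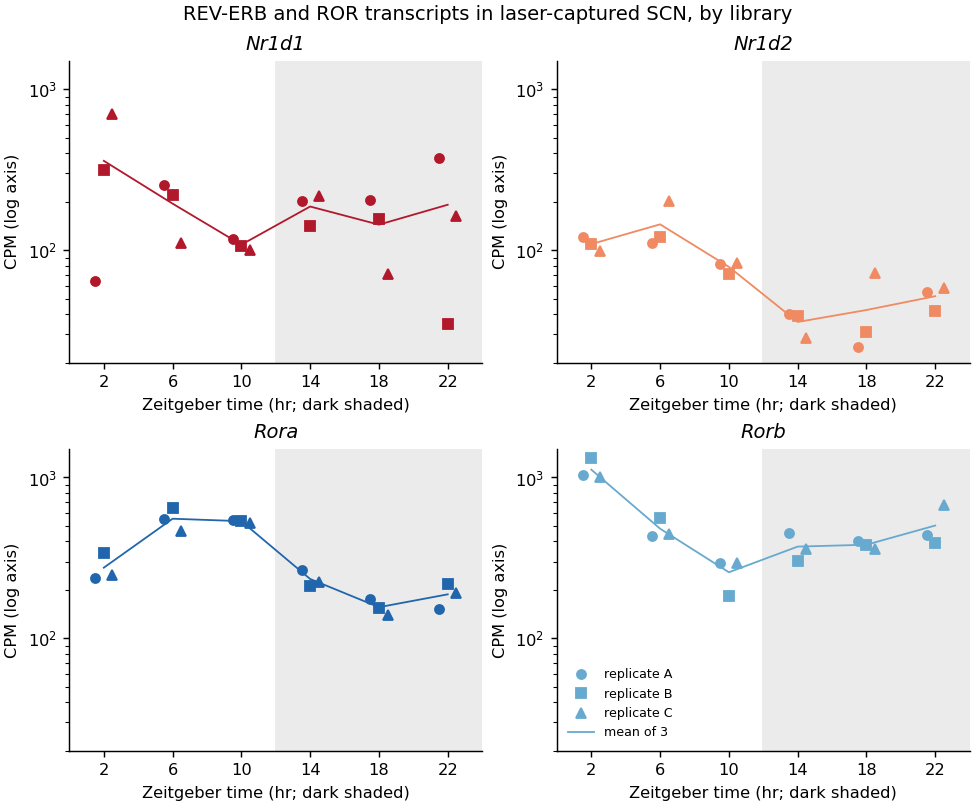
Level of each receptor gene (CPM, log axis) against Zeitgeber time, with 1 point per library, a marker shape per replicate and a line through the mean of 3. *Nr1d1* replicates spread over 10.9-fold at ZT2 and 10.7-fold at ZT22, while *Rora* and *Rorb* replicates lie within 1.72-fold of each other at every timepoint.

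*Nr1d2* encodes REV-ERBβ and lies on chromosome 14 (18204054 to 18239127, minus strand, GRCm38). At ZT2 its level was 120.2 CPM in replicate A, 108.6 in B and 98.8 in C. At ZT6 it was 111.3, 121.6 and 201.8 CPM in the same order. At ZT10 it was 82.2, 71.3 and 83.0 CPM. These light-phase libraries lay above nearly all dark-phase ones. The dark-phase values were 40.0, 38.9 and 28.5 CPM at ZT14 and 24.9, 30.9 and 71.7 CPM at ZT18. At ZT22 they were 55.3, 41.7 and 58.4 CPM. The exception was ZT18 replicate C, whose 71.7 CPM reached the range of ZT10 and which is 1 of the 2 libraries that stood apart.

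*Nr1d2* was highest at ZT6 (145 ± 49.6 CPM, SD, n = 3) and lowest at ZT14 (35.8 ± 6.39 CPM), a ratio of means of 4.05 with no overlap between these groups. The time test gave an adjusted p of 0.000165 (edgeR) and JTK_CYCLE an exact p of 8.53e-05 with the peak at ZT6. A cosine fitted with limma placed the peak at 4.92 ± 0.47 hr (SE) with an amplitude of 1.04 ± 0.13 on the log2 scale, which is 4.22-fold from trough to peak. In the order of means ZT6, ZT2, ZT10, ZT22, ZT18 and ZT14, replicates of ZT6 and ZT2 overlapped, as did those of ZT22 and ZT18 and of ZT18 and ZT14. Without both libraries that stood apart the adjusted p was 1.03e-06 and the fitted peak 4.99 hr.

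*Rora* encodes RORα, an activator at ROREs, and spans a long stretch of chromosome 9 (68653786 to 69388246, plus strand). It was highest in the middle and late light phase, with 554, 643 and 465 CPM in replicates A, B and C at ZT6 and 547, 536 and 522 CPM at ZT10. At ZT2 it was 237, 342 and 246 CPM. All 6 libraries of ZT6 and ZT10 lay above all 12 others. In the dark the levels were 264, 212 and 225 CPM at ZT14 and 175, 155 and 139 CPM at ZT18. At ZT22 they were 153, 218 and 192 CPM.

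The ratio of *Rora* means between ZT6 (554 ± 88.9 CPM) and ZT18 (156 ± 18.2 CPM) was 3.55, with an adjusted p of 5.33e-07 for time (edgeR) and a JTK_CYCLE exact p of 2.57e-05. The fitted peak was at 7.52 ± 0.35 hr with an amplitude of 0.97 ± 0.09 (log2), which is 3.86-fold. Only the step from ZT10 to ZT2 in the order of means was free of overlap between replicates. ZT6 and ZT10 (535 ± 12.7 CPM) overlapped, and so did each pair of neighbours from ZT2 down through ZT14, ZT22 and ZT18. The summed SCN neuron markers were also highest at ZT6 and ZT10 (4327 to 5658 CPM, against 1502 to 3628 CPM in the other libraries). Of that list 9 of 10 genes changed with time, several of them clock-driven neuropeptide genes, and the part of cell content in the level of *Rora* was not tested.

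*Rorb* encodes RORβ, on chromosome 19 (18930605 to 19111196, minus strand), and was highest early in the light phase. At ZT2 it reached 1033, 1317 and 1006 CPM in replicates A, B and C, above every other library. At ZT6 it was 436, 558 and 447 CPM and at ZT10 295, 184 and 293 CPM. The other timepoints lay in between. They read 453, 305 and 358 CPM at ZT14, 404, 382 and 359 CPM at ZT18, and 439, 392 and 676 CPM at ZT22.

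The mean of *Rorb* was 1118 ± 172 CPM at ZT2 and 257 ± 63.2 CPM at ZT10, a ratio of 4.34. The adjusted p for time was 8.84e-06 (edgeR) and the JTK_CYCLE exact p was 0.00328, with the peak at ZT2. The fitted peak was at 1.08 ± 0.74 hr with an amplitude of 0.77 ± 0.15 (log2), which is 2.90-fold. In the order of means, ZT2 stood clear of ZT22, ZT6 of ZT18, and ZT14 of ZT10, while ZT22 and ZT6, and ZT18 and ZT14, overlapped. Astrocyte markers (6 genes, summed) were also highest at ZT2 (4067 to 5235 CPM) and lowest at ZT10 (1640 to 2008 CPM), and their part in the level of *Rorb* was not tested. The sum does not stand for each gene, as all 6 changed with time and 3 had their highest mean at ZT14, ZT18 or ZT22.

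*Nr1d1* encodes REV-ERBα, on chromosome 11 (98767932 to 98775333, minus strand). Its timepoint means differed at most 3.32-fold, less than its replicates at ZT2 or at ZT22 did. At ZT2 it was 64.4 CPM in replicate A, 315 in B and 699 in C. At ZT22 it was 376, 35.0 and 164 CPM, so that the highest and the lowest library of the series came from the same cluster. At ZT6 the levels were 254, 219 and 111 CPM, and at ZT10 118, 106 and 100.6 CPM. ZT10 was the only timepoint with replicates within 1.17-fold of each other. At ZT14 the levels were 203, 141 and 217 CPM, and at ZT18 206, 156 and 71.2 CPM.

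The highest mean of *Nr1d1* was 360 ± 320 CPM at ZT2 and the lowest 108 ± 8.99 CPM at ZT10, with overlapping replicates. ZT14 stood clear of ZT10, with a difference of 0.79 ± 0.69 (log2, SE; edgeR adjusted p = 0.489). The time test gave an adjusted p of 0.33 (edgeR) and JTK_CYCLE an exact p of 1. The fitted cosine had an amplitude of 0.26 ± 0.31 (log2; limma adjusted p = 0.756), so its peak at 2.93 ± 4.43 hr is not determined. Each neighbouring pair in the order of means overlapped. These values do not show that *Nr1d1* was constant. The SE of its differences between timepoints was 0.68 to 0.69 on the log2 scale, against 0.18 to 0.32 for the other members.

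*Nr1d1* had 953 to 18140 reads per library, from amplified cDNA, so the number of molecules behind them is not known. The SD within timepoints was 1.10 log2 units for *Nr1d1*, or 2.14-fold, which was larger than that of 99.8% of the 2068 genes within 2-fold of its mean level. For *Nr1d2* the SD was 0.42 log2 units, larger than that of 82.6% of 3870 genes at its level. *Rorb* (0.29 log2 units, 66.6% of 629 genes) and *Rora* (0.21 log2 units, 37.2% of 1116 genes) lay nearer the middle. Of 15758 other genes, 5.34% had deviations within timepoints that correlated with those of *Nr1d1* over the 18 libraries at r above 0.7, against 2.96% for *Nr1d2*, 0.603% for *Rora* and 0.394% for *Rorb*. This description was chosen after the values were seen, and the source of the spread was not tested.

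*Nr1d1* overlaps *Thra*, the thyroid hormone receptor α gene, which runs in the opposite direction (98740638 to 98769006, plus strand). The genes share 263 exonic bases (98768157 to 98768419), 8.55% of the merged exons of *Nr1d1* and 5.70% of those of *Thra*. Whether strand was used in counting is not given in the sources used here, so reads from these bases cannot be assigned with certainty. *Thra* changed with time (edgeR adjusted p = 2.42e-06), with 256, 198 and 247 CPM in replicates A, B and C at ZT6 and 48.7, 61.4 and 78.8 CPM at ZT2. At ZT22, where *Nr1d1* ranged over 10.7-fold, *Thra* was 83.6, 75.3 and 65.6 CPM. Its pattern was thus low where *Nr1d1* had its widest spread. Over the 18 libraries the deviations of both genes within timepoints correlated with r = 0.223, and their levels with r = -0.0905, given as descriptions.

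**Figure D2:**
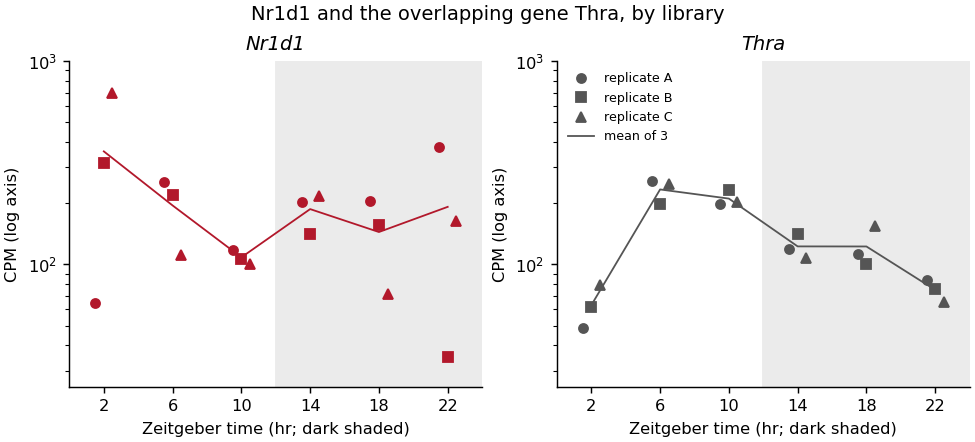
Level of *Nr1d1* (left) and of the overlapping gene *Thra* (right) in CPM (log axis) against Zeitgeber time, with 1 point per library and a line through the mean of 3. *Thra* replicates lie within 1.62-fold of each other at every timepoint, whereas *Nr1d1* replicates span up to 10.9-fold.

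In CPM per kilobase of merged exons (RPKM), the mean level over the 18 libraries was 64.2 for *Nr1d1*, 46.8 for *Rorb*, 24.8 for *Rora* and 14.3 for *Nr1d2*. The order changed through the day. *Rora* ranked first in the 3 libraries of ZT10 and in no other. *Nr1d1* ranked first in 9 libraries, among them all 3 of ZT14, and *Rorb* in 6. *Nr1d2* ranked last in 15 of 18.

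To separate the timepoints, 9 differences were tested for each member in the same edgeR fit. Inside clusters, 0 of 4 members were called in each of ZT2 against ZT22, ZT6 against ZT10 and ZT14 against ZT18, where 0.0317%, 0.0475% and 0.570% of all genes were called. At an unadjusted p under 0.05, 3, 2 and 1 members passed, against 3.59%, 10.8% and 13.5% of all genes. DESeq2 called 3 of the 12 pairs of member and comparison. Among the genes to which it gave an adjusted p, it called 0.218% of 15590, 1.44% of 17033 and 5.16% of 16310 in these comparisons.

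*Rorb* had the largest difference inside a cluster. It was higher at ZT2 than at ZT22 by 1.15 ± 0.23 (log2, SE; edgeR adjusted p = 0.0989, DESeq2 adjusted p = 0.000208), with no overlap between replicates. From ZT10 to ZT6 it differed by 0.90 ± 0.23 (edgeR adjusted p = 0.234, DESeq2 adjusted p = 0.00955), also without overlap. For *Nr1d2* the difference between ZT2 and ZT22 was 1.08 ± 0.31 (edgeR adjusted p = 1) and that between ZT6 and ZT10 was 0.88 ± 0.31 (adjusted p = 0.377), both without overlap. Without ZT6 replicate C and ZT18 replicate C, the first of these passed (adjusted p = 0.0206). *Rora* differed by 0.58 ± 0.18 between ZT14 and ZT18 (edgeR adjusted p = 0.147, DESeq2 adjusted p = 0.0405) and by 0.05 ± 0.18 between ZT6 and ZT10 (adjusted p = 0.95).

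Between neighbouring timepoints of different clusters more genes differed, 33.8% from ZT2 to ZT6, 16.8% from ZT10 to ZT14 and 18.1% from ZT18 to ZT22. The clusters were drawn from the expression of these same libraries, so fewer calls inside clusters than between them follow from the grouping. From ZT2 to ZT6, *Rora* rose by 1.01 ± 0.18 (log2; edgeR adjusted p = 0.000325) while *Rorb* fell by 1.22 ± 0.23 (adjusted p = 0.000449). From ZT10 to ZT14, *Rora* fell by 1.19 ± 0.18 (adjusted p = 0.000258) and *Nr1d2* fell by 1.14 ± 0.32 (adjusted p = 0.0185). The call for *Nr1d2* was lost without ZT10 replicate A (adjusted p = 0.0508), ZT10 replicate C (0.0531) or ZT14 replicate C (0.0881). From ZT18 to ZT22, 0 of 4 members were called, also by an unadjusted p under 0.05 or by DESeq2. *Nr1d2* passed there, with a difference of 0.89, when ZT18 replicate C was left out (adjusted p = 0.0203).

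Timepoints 12 hr apart were compared next, where 23.8% of all genes differed between ZT2 and ZT14, 20.7% between ZT6 and ZT18, and 26.4% between ZT10 and ZT22. *Nr1d2* was higher at ZT2 than at ZT14 by 1.61 ± 0.32 (log2; edgeR adjusted p = 0.00116), and *Rorb* by 1.59 ± 0.23 (adjusted p = 6.15e-05). At ZT6 against ZT18, *Nr1d2* was higher by 1.77 ± 0.32 (adjusted p = 0.00107) and *Rora* by 1.83 ± 0.19 (adjusted p = 7.11e-06). At ZT10 against ZT22, *Rora* was higher by 1.51 ± 0.18 (adjusted p = 9.34e-06), whereas *Rorb* was lower, with a difference of -0.97 ± 0.23 (adjusted p = 0.00371). *Nr1d2* differed there by 0.61 ± 0.31 (adjusted p = 0.172), which passed without ZT18 replicate C (adjusted p = 0.0447). *Nr1d1* was called in none of the 9 comparisons, with adjusted p from 0.343 to 1 (edgeR). All 9 share one fit, and several share libraries.

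**Figure D3:**
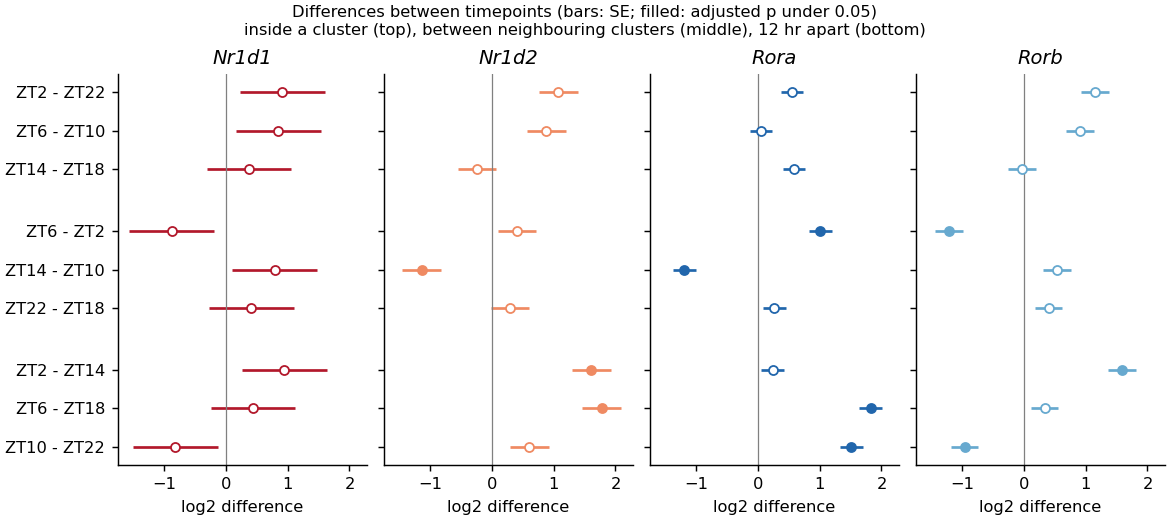
Differences between timepoints for each receptor gene on the log2 scale (horizontal axis), with SE bars, for the 3 pairs inside a cluster (top), the 3 neighbouring pairs across clusters (middle) and the 3 pairs 12 hr apart (bottom). Filled points have an adjusted p under 0.05 (edgeR): none of *Nr1d1*, 3 each of *Nr1d2* and *Rorb*, and 4 of *Rora*.

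Ratios of reads between members within a library do not depend on its depth or scaling, and were tested with JTK_CYCLE (exact, adjusted over 4 ratios). The ratio of the ROR genes changed through the day. *Rorb* had 3.85 to 4.36 reads per *Rora* read at ZT2, 0.786 to 0.962 at ZT6 and 0.344 to 0.561 at ZT10. It returned to 1.44 to 1.71 at ZT14, 2.31 to 2.59 at ZT18 and 1.80 to 3.51 at ZT22. The adjusted p was 0.0016, with the peak of the wave at ZT22, although the highest ratios were at ZT2. Replicates of ZT2, ZT6, ZT10 and ZT14 did not overlap with those of any other timepoint. These are ratios of reads, not of molecules, since *Rora* and *Rorb* differ in exon length (13071 and 11076 merged bases). Per length, the ratio was 0.928 to 1.13 at ZT6, with *Rorb* above *Rora* in 2 of 3 libraries, and 0.406 to 0.662 at ZT10, with *Rorb* below in all 3.

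*Nr1d2*, the repressor, was also compared with *Rora*, the activator. There were 0.318 to 0.507 *Nr1d2* reads per *Rora* read at ZT2, 0.189 to 0.434 at ZT6, 0.133 to 0.159 at ZT10 and 0.126 to 0.184 at ZT14. At ZT18 the ratio was 0.142 to 0.517 and at ZT22 it was 0.192 to 0.362. The adjusted p was 0.026 with the peak at ZT2, and 0.00396 without the libraries that stood apart. It missed the threshold without ZT2 replicate A (0.0736), ZT2 replicate C (0.0538), ZT14 replicate C (0.0994), or any of ZT6 replicate A, ZT10 replicate C and ZT22 replicate C (0.0506 each). The ratio of *Nr1d1* to *Nr1d2* (adjusted p = 0.572) and that of *Nr1d1* to *Thra* (0.24) did not pass, and the second passed without ZT22 replicate B (0.0359).

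**Figure D4:**
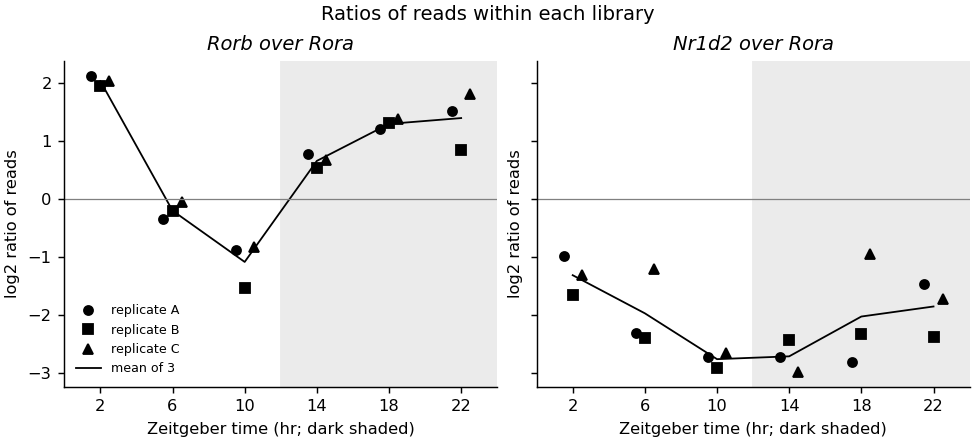
Log2 ratio of reads within each library against Zeitgeber time, for *Rorb* over *Rora* (left) and *Nr1d2* over *Rora* (right), with 1 point per library and a line through the mean of 3. *Rorb* exceeds *Rora* in all libraries of ZT2, ZT14, ZT18 and ZT22 and falls below it in all 6 of ZT6 and ZT10, which per length holds at ZT10 but in 1 of 3 libraries at ZT6.

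Of the 5 RORE genes, 3 changed with time and 2 were called cycling, beside 44.0% and 29.9% of all genes. Their median gap between the highest and lowest timepoint mean was 1.21 log2 units, against 1.63 over all genes. The value over all genes includes genes with few reads, and no comparison at matched level was made. *Arntl*, the partner of CLOCK, was 21.9, 24.3 and 22.2 CPM at ZT6, where *Nr1d2* and *Rora* were high, and 72.0, 37.7 and 46.0 CPM at ZT14. Its adjusted p for time was 0.00725 (edgeR) and its fitted peak lay at 15.9 ± 0.74 hr. *Cry1*, a repressor of CLOCK and BMAL1, was highest at ZT10 (56.7 ± 5.79 CPM) and lowest at ZT22 (24.5 ± 3.56 CPM; adjusted p = 0.00161), with a fitted peak at 9.28 ± 0.75 hr. *Clock* changed with time (adjusted p = 0.0214) but was not called cycling (JTK_CYCLE exact p = 0.332).

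*Nfil3*, a D-box repressor and RORE gene, had its highest mean at ZT14 (12.7 ± 1.00 CPM) and its lowest at ZT2 (3.64 ± 1.37 CPM), and missed the time test (adjusted p = 0.0639, edgeR). *Npas2*, a paralogue of CLOCK, was highest at ZT14 (10.2 ± 0.48 CPM; adjusted p = 0.052). By highest mean the 5 RORE genes did not share a timepoint, with *Clock* at ZT2 and *Cry1* at ZT10. Replicates of *Clock* overlapped between ZT2 and ZT14 (edgeR adjusted p = 0.851). Those of *Cry1* overlapped between ZT6 and ZT10 (edgeR adjusted p = 0.998), so neither highest timepoint is resolved. Levels of mRNA are not levels of receptor protein, and no relation between them was tested.

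**Figure D5:**
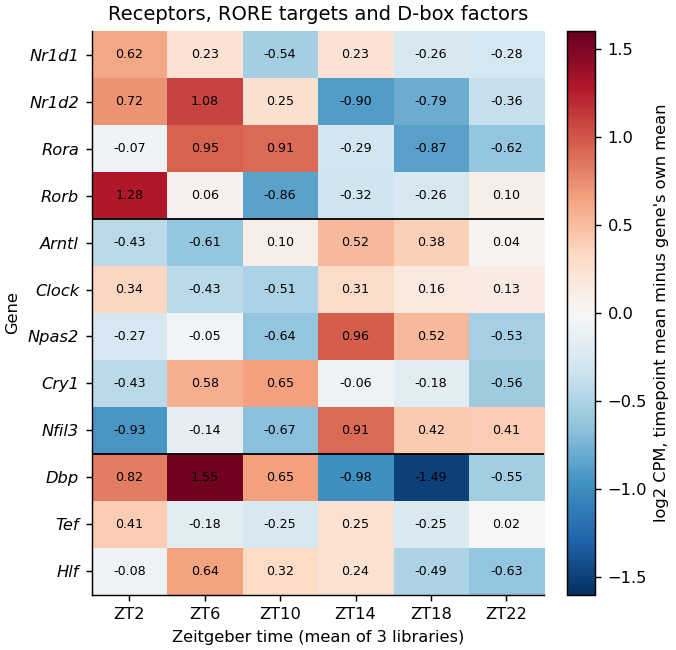
Mean log2 CPM at each timepoint minus the gene's own mean over timepoints (colour and printed value), for the receptors (top), RORE genes (middle) and D-box factors (bottom). *Nr1d2* runs from 1.08 at ZT6 to -0.90 at ZT14, and *Arntl* from -0.61 at ZT6 to 0.52 at ZT14.

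Of 10 E-box activators and repressors that act on the REV-ERB promoters, 9 changed with time and 6 were called cycling, beside 44.0% and 29.9% of all genes. *Per2*, a repressor in the core loop, was 123 ± 60.0 CPM at ZT6 and 10.8 ± 4.02 CPM at ZT22 (adjusted p = 3.03e-07, edgeR). *Bhlhe41* (DEC2), an E-box repressor, was 663 ± 36.6 CPM at ZT6 and 104 ± 26.1 CPM at ZT22, with a fitted peak at 5.68 ± 0.47 hr beside the 4.92 hr of *Nr1d2*. *Per1* peaked at 8.68 ± 0.46 hr.

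Of the 4 D-box factors 3 changed with time and 2 were called cycling, beside the same shares. *Dbp*, an activator at D-boxes and an E-box gene like the REV-ERBs, was 100.3, 109.7 and 104.0 CPM at ZT6 and 14.9, 14.2 and 9.52 CPM at ZT18. Its fitted peak lay at 5.57 ± 0.26 hr. *Hlf* peaked at 8.49 ± 0.49 hr with an amplitude of 0.61 ± 0.08 (log2), and *Tef* changed with time (adjusted p = 0.0022, edgeR) and did not pass the test for a 24 hr wave (JTK_CYCLE exact p = 1), with a fitted amplitude of 0.13 ± 0.10 (log2). In *Dbp*, unlike *Nr1d1*, replicates lay within 2.01-fold of each other at every timepoint.

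The receptors act through partner proteins. In the REV-ERB corepressor complex 3 of 6 genes changed with time and 2 were called cycling, which is near the shares of all genes (44.0% and 29.9%). *Ncor1*, the corepressor best known with REV-ERB, was at most 1.61-fold apart between timepoint means (adjusted p = 0.022, edgeR). Among 9 ROR coactivators and corepressors 3 changed and 1 was called cycling, no larger a share than among all genes, and *Ppargc1b* (PGC-1β) was 24.2 ± 8.51 CPM at ZT14 and 4.75 ± 0.88 CPM at ZT2. Of 7 genes in REV-ERB protein turnover 4 changed and 0 were called cycling by the time test with JTK_CYCLE. Of these, the ubiquitin ligase genes *Mycbp2* (338 ± 35.9 CPM) and *Huwe1* (312 ± 52.1 CPM) had their highest means at ZT2, and *Fbxw7*, a ligase subunit, at ZT22 (286 ± 102 CPM).

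Haem is the ligand of REV-ERB, and of 12 genes of its synthesis and breakdown 8 changed with time and 6 were called cycling, beside the same shares of all genes. *Uros* was 103 ± 12.9 CPM at ZT2 and 38.1 ± 16.4 CPM at ZT6, and *Urod* was likewise lowest at ZT6 (56.0 ± 15.1 CPM). Of 44 other nuclear receptors, 35 could be tested, 18 changed with time and 10 were called cycling, again beside 44.0% and 29.9% of all genes. Among them *Esrra* was 10.3 ± 2.81 CPM at ZT6 and 0.89 ± 0.37 CPM at ZT2, and *Nr1h2* (LXRβ) was 62.3 ± 2.29 CPM at ZT10 and 5.82 to 11.5 CPM at ZT2.

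The genes most like each member over the 18 libraries were ranked by Pearson's r of log2 CPM among the 15759 genes that averaged 10 counts or more, with the members left out. For *Rora* they were *C1ql3* (r = 0.969), *Mnt* (0.938) and *Dlk1* (0.937). *C1ql3*, a secreted synaptic protein gene, was 296 ± 34.8 CPM at ZT10 and 40.1 ± 7.02 CPM at ZT18. For *Nr1d2* they were *Ptp4a1* (0.946), *Hmgb3* (0.929) and *Sik1* (0.907), a kinase gene that cAMP signalling and light induce in the SCN. For *Rorb* they were *Inpp5f* (0.90), *Rnd3* (0.898) and *Scd1* (0.883). *Inpp5f* was 884 ± 21.6 CPM at ZT2 and 346 ± 42.4 CPM at ZT10. For *Nr1d1* the values were lower, at 0.792 for *Ankrd6*, 0.786 for *Adgrg1* and 0.748 for *Wdfy1*, none of which changed with time. The points share libraries, clusters and scaling, so these r values describe likeness only.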

How the data were processed

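SCN RNA was measured in 18 libraries (6 timepoints, 3 replicates of pooled mice). Per the labels and methods, the authors aligned reads with GSNAP to mm10 (GRCm38), counted them per gene with HTSeq 0.5.4p1 and combined the 3 lanes of a replicate. The count table deposited by the authors holds whole, unnormalized read counts for 30031 genes, and 0 sample columns were left unused. A second table deposited by the authors holds normalized signal, counts divided by a DESeq2 size factor, from which whole reads were recovered (100% of values within 0.1 of a whole number). Outside ZT6 and ZT10 the members' reads in both tables were the same in 11 or 12 of 12 libraries. At ZT6 and ZT10 they were the same in 0 of 6, with median log2 ratios of recovered to counted reads of -0.08 to -0.01. This was not particular to the members. Of all shared genes with reads, 8.72% to 12.1% had the same reads in the ZT6 and ZT10 libraries, against 92.7% to 94.2% in the others. The difference thus follows a cluster of timepoints, and its cause was not tested. Strand and overlap settings of the counting are not given in the sources used here. Depth was 15412981 to 35820945 reads, and read numbers cover counting error only, since the cDNA was amplified.

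The 18941 genes that had 1 read or more in over 6 libraries were tested with edgeR 4.0.16 (TMM, quasi-likelihood) in R 4.3.3 with a threshold of 0.05 on Benjamini–Hochberg adjusted p. JTK_CYCLE was rewritten in Python 3.11.15 (24 hr period, 6 lags, exact two-sided p times 6). A gene was called cycling when the time test and JTK_CYCLE both passed. Cosines were fitted with limma 3.58.1 to log2 CPM (prior count 2). RPKM used merged exons of GENCODE M21 (GRCm38), which gave symbols to 97.2% of identifiers. Scripts were tested on simulated data. DESeq2 1.42.0, other scalings, filters, the recovered reads and leaving out libraries were alternatives. The members, lists and comparisons were chosen with earlier results of these data known. Named genes were the members, *Thra*, the RORE and D-box genes, up to 3 changed genes with the smallest p of each other list and the 3 genes most like each member, and 3 genes are not reported here. P-values measure the spread between pools.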

Additional observations from a re-analysis of the deposited data

How the results depend on the processing

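In 27 fits the 3 changing and 3 cycling members kept their counts, including the 18 that left out 1 replicate each, and the fits with other scalings, filters, DESeq2 or the recovered reads (9367 of 20822 genes changed with time). JTK_CYCLE on the deposited normalized values, its p adjusted over genes, and the cosinor in its place each also gave 3. The number of member pairs called inside a cluster rose from 0 of 12 to 3 with DESeq2, and to 1 with at least 10 counts in every replicate, with no filter on low counts, or without ZT6 replicate C and ZT18 replicate C, an alternative chosen after seeing the data. DESeq2 called 34, 246 and 842 genes in these 3 comparisons, against 6, 9 and 108 with edgeR, and the cause was not tested. Leaving out 1 replicate gave 0 pairs inside a cluster, 3 to 5 of 12 between neighbours across clusters (4 with all libraries), and 6 to 7 of 12 at 12 hr apart (6 with all). The fit with the replicate block gave 3 changing members, 0 pairs inside a cluster, 4 and 6. It changed no call of a member, and 7847 genes changed with time. Deviations of libraries of the same letter correlated at -0.191 to 0.104 (median -0.00298, 45 pairs). For different letters the range was -0.21 to 0.209 (median -0.00135, 90 pairs). A pairing by letter was thus not visible over all genes, which does not show that there was none. Adjusted p for the ratios with 1 replicate left out ranged from 0.00232 to 0.0994 for *Nr1d2* over *Rora*, 0.000289 to 0.00756 for *Rorb* over *Rora*, 0.146 to 1 for *Nr1d1* over *Nr1d2* and 0.0359 to 0.591 for *Nr1d1* over *Thra*. Fitted peaks then moved over 4.72 to 5.09 hr for *Nr1d2*, 7.12 to 7.68 hr for *Rora*, 0.755 to 1.49 hr for *Rorb* and 0.292 to 5.24 hr for *Nr1d1*. Of 936 values of the 36 pairs of member and comparison, 923 stayed on the same side of the threshold, 3 lost it and 10 gained it. None of those called changed sign, and 7 values that were not called did. With the longest transcript in place of merged exons, the levels were 72.6, 55.8, 29.7 and 16.5 RPKM for *Nr1d1*, *Rorb*, *Rora* and *Nr1d2*, in the same order.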
